A study of Mus musculus with 12 samples.

Results

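The 10 chemokine genes described here are Cxcl9, Cxcl10, Cxcl11, Cxcl16, Cx3cl1, Ccl20, Ccl25, Ccl28, Ccl5 and Ccl2. They were taken from a list of names and found among the 48526 gene rows of each library by mapping Ensembl identifiers to mouse symbols. The members, and the gene lists set beside them, were chosen with earlier results of these data known. RNA came from epithelium released with EDTA from the proximal small intestine of 4 female mice aged 3 months (the extraction protocol gives the proximal part, while the sample titles speak of whole intestine). In 2 mice (DKO) the acetyltransferase genes Kat2a and Kat2b were deleted by 4 daily intraperitoneal injections of tamoxifen at 100 mg/kg in ethanol and corn oil. The other 2 mice (control) received the same solvent without tamoxifen, and the epithelium of all 4 was collected 2 days after the injections ended. The effects of genotype and of tamoxifen therefore cannot be told apart, and the labels name neither the recombinase that deleted the genes nor the promoter that drove it. Each animal gave 1 library of unselected RNA (input) and 1 library each from pulldowns with J2 and K1, antibodies that bind double-stranded RNA. The 12 libraries form 6 groups of 2, and the series asked how RNA bound by these antibodies differs when both acetyltransferases are missing.

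Chemokines are small secreted proteins that steer leukocytes through G protein-coupled receptors. In the small intestine the epithelium makes Ccl25 and Cx3cl1 without inflammation, which helps to place lymphocytes and phagocytes along the mucosa. Others, such as Cxcl9, Cxcl10 and Ccl20, are switched on by interferons or by NF-kB, the transcription factor family downstream of tumour necrosis factor and of microbial sensors. Double-stranded RNA is one of the signals that can start both routes.

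The 250 bases before the transcription start are shown for the 4 chemokines that passed the test of DKO against control in input, J2 and K1 alike. They are RefSeq sequences of GRCm38.p6, read 5′ to 3′ on the strand of the gene. Capitals mark matches to an interferon-stimulated response element or to the NF-kB consensus.
Cxcl10: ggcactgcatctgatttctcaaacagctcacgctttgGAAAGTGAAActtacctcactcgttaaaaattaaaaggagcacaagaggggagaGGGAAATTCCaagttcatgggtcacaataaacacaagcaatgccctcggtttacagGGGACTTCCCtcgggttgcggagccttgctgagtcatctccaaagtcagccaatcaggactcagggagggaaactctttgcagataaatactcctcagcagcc
Cxcl9: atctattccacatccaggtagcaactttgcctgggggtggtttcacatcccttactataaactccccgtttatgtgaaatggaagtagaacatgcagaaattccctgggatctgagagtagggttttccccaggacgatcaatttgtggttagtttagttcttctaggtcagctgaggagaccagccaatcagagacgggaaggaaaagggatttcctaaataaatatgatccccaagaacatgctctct
Ccl20: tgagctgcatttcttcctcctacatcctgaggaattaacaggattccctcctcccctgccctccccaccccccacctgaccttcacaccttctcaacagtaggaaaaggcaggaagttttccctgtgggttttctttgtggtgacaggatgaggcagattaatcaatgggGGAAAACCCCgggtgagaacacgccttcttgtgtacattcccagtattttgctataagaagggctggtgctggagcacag
Ccl28: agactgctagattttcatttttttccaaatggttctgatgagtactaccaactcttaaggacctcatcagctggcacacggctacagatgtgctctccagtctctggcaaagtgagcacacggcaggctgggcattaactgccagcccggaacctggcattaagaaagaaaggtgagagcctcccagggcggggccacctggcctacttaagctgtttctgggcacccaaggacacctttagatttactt
The window of Cxcl10 is chr5:92348890-92349139 on the minus strand, that of Cxcl9 chr5:92328080-92328329 on the minus strand, that of Ccl20 chr1:83116516-83116765 on the plus strand and that of Ccl28 chr13:119623569-119623818 on the plus strand. Of the motifs, 3 were searched on both strands: GAAANNGAAA for the interferon-stimulated response element, TTCNNNGAA for the gamma-activated site, and the NF-kB consensus. Of 32851 windows of 250 bases before RefSeq starts, 2.98% held the first, 7.02% the second and 3.9% the NF-kB consensus. In Cxcl10, GAAAGTGAAA lies 213 to 204 bases before the start, and NF-kB matches lie 159 to 150 and 103 to 94 bases before it. In Ccl20 the capitals are an NF-kB match on the opposite strand, 80 to 71 bases before the start. None of the 3 motifs was found in these windows of Cxcl9 and Ccl28, nor in the windows of Ccl25 and Cx3cl1, which completed the 6 members with a RefSeq entry. A match describes the letters of a window and not the binding of a factor.

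Input libraries held 10307281 to 11474107 counts assigned to genes, control pulldowns 13308021 to 16139531, and DKO pulldowns 2220291 to 5826361. The labels were checked on the targeted genes in input. Kat2b fell from 30.9 ± 3.16 CPM (counts per 1000000 counts of the scaled library, SD, n = 2) to 10.9 ± 1.19, and Kat2a from 19.8 ± 1.01 to 10.7 ± 3.31. All 8 epithelial markers of the list were detected in every group, with summed input levels of 8027 and 8251 CPM in control and 9119 and 7548 CPM in DKO. Counts of the 2 libraries of a group differed by more than sampling noise in all 6 groups (chi-square per degree of freedom of 11 or more).

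In input RNA Cxcl9, Cxcl10, Ccl20 and Cxcl16 were far higher in DKO and Cxcl11 and Cx3cl1 modestly higher, while Ccl25, Ccl28 and Ccl5 were lower. Of the 10 members, 9 passed the filter on low counts, and all 9 passed the threshold in edgeR's quasi-likelihood test (Benjamini-Hochberg adjusted p under 0.05 over all genes tested). Of these, 6 rose and 3 fell. The same test called 35.9% of all genes, 18.8% higher and 17.1% lower. Cxcl9 passed the filter only through the DKO libraries and so had to differ, so this count describes the members and supports nothing further. Control and DKO libraries overlapped for none of the 9 genes. Groups of 2 libraries can separate without a difference, and the share of all genes that separate was not determined. Non-overlap here and below therefore only describes the values. In a fit of all 12 libraries together the calls of Cxcl11, Cx3cl1, Ccl5, Ccl25 and Ccl28 were lost (adjusted p 0.125 to 0.439). In bulk RNA a change in the number of cells that make a transcript and a change in RNA per cell cannot be told apart.

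Cxcl9, Cxcl10 and Cxcl11 are the ligands of CXCR3, the receptor that brings activated T cells and natural killer cells to sites of interferon signalling. Their genes lie side by side on chromosome 5 of GRCm38, all on the minus strand, with Cxcl9 at 92321347 to 92328079, Cxcl10 at 92346638 to 92348889 and Cxcl11 at 92359544 to 92365485. Cxcl9 stood at 0.647 and 0.502 CPM in the control inputs, from 7 and 6 counts, and at 21.4 and 11.97 CPM in the DKO inputs, from 215 and 136 counts. Every DKO library was thus well above a control level close to the limit of detection, and the fitted log2 fold change reached 4.83 (SE 0.52, edgeR adjusted p 0.000295). Cxcl10 was at 3.88 and 1.67 CPM in control and at 39.2 and 23.2 CPM in DKO. Its log2 fold change of 3.50 (SE 0.40, edgeR adjusted p 0.000711) grew to 4.2 when control replicate 1, the higher of the controls, was left out. Cxcl11 moved least, from 4.16 and 3.52 CPM to 7.75 and 6.60 CPM, a log2 fold change of 0.90 (SE 0.24, edgeR adjusted p 0.0245).

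The Cxcl11 call was the least secure of the 9. It was lost without control replicate 1 (log2 fold change 1.01, adjusted p 0.064), without control replicate 2 (0.77, adjusted p 0.172), without DKO replicate 1 (0.79, adjusted p 0.0521), with scaling by library size alone (0.76, adjusted p 0.0562) and with DESeq2 (0.90, adjusted p 0.113). The annotation lists mouse Cxcl11 as a polymorphic pseudogene, and 41.7% of its exonic bases overlap Gm2673, a processed pseudogene on the other strand. Counting ignored strand, and reads ambiguous between genes were left out. The 0 counts of Gm2673 in all 12 libraries therefore do not show whether it is expressed. Cxcl11 counts may miss reads from the shared bases. Its neighbour Art3, which overlaps 5.91% of the Cxcl10 exons, had at most 5 counts in any library.

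Cxcl16 and Cx3cl1 are the 2 chemokines made as membrane proteins, which hold cells at the surface until proteases release a soluble form. Cxcl16, the ligand of CXCR6 on resident lymphocytes (chromosome 11, 70453983 to 70459984, minus strand), stood at 11.46 and 10.97 CPM in control input and at 70.5 and 43.1 CPM in DKO input. The fold change on the log2 scale was 2.34 (SE 0.24, edgeR adjusted p 0.000493), and the lower DKO library was still above both controls by a wide margin. Exons of Zmynd15 on the other strand overlap 18.3% of Cxcl16, and counting ignored strand. Without reads ambiguous between the genes, Zmynd15 had 6 and 10 counts in control and 50 and 28 in DKO. Cxcl16 had 124 and 131 and then 710 and 490. Cx3cl1 (fractalkine, chromosome 8, 94772009 to 94782427, plus strand), whose receptor CX3CR1 marks intestinal phagocytes, was already abundant in control input, at 213 and 194 CPM. In DKO it was at 304 and 320 CPM, a modest but separate log2 fold change of 0.62 (SE 0.13, edgeR adjusted p 0.00826). That call was lost without control replicate 2 (0.54, adjusted p 0.122).

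Ccl20 attracts CCR6-bearing B cells, dendritic cells and T cells and is known from the epithelium over lymphoid follicles (chromosome 1, 83116766 to 83119167, plus strand). It stood at 6.10 and 3.43 CPM in control input and at 146 and 119 CPM in DKO input. The groups lay far apart, with 66 and 41 counts against 1472 and 1354, with a fold change of 4.81 on the log2 scale (SE 0.25, edgeR adjusted p 6.18e-05). Among the 15088 genes tested in input, 0.835% had an absolute log2 fold change at least as large, and for Cxcl9 the share was 0.822%. Cxcl9 was tested only because its DKO libraries passed the filter, so its share describes the value and no more.

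Ccl25 draws CCR9-bearing T cells and IgA plasma cells to the small intestine (chromosome 8, 4325210 to 4360020, plus strand). It was at 309.8 and 349 CPM in control input and at 218 and 230.2 CPM in DKO input, with a log2 fold change of -0.56 (SE 0.13, edgeR adjusted p 0.0139). Without control replicate 2 it was -0.47 and no longer passed (adjusted p 0.161). Ccl28, the mucosal ligand of CCR10 on IgA plasma cells (chromosome 13, 119623819 to 119654359, plus strand), went from 26.2 and 23.2 CPM to 12.8 and 12.8 CPM, a log2 fold change of -0.95 (SE 0.16, edgeR adjusted p 0.0034). The falls of both genes were small beside the rises of Cxcl9 and Ccl20.

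Ccl5 is made chiefly by effector T cells, intraepithelial lymphocytes among them (chromosome 11, 83525778 to 83530518, minus strand). It stood at 29.3 and 30.3 CPM in control input and at 17.5 and 12.4 CPM in DKO input, a log2 fold change of -1.0 (SE 0.19, edgeR adjusted p 0.00559). Markers of T cells and intraepithelial lymphocytes moved with it: of 12 listed genes 11 were tested, 6 fell and 0 rose, with summed levels of 153.3 to 153.8 CPM in control and 94.4 to 105 CPM in DKO. Over all genes tested in input, 17.1% fell and 18.8% rose. The part of these cells in the Ccl5 result was not tested. Ccl2, which recruits monocytes through CCR2 (chromosome 11, 82035571 to 82037453, plus strand), had 0 counts in both control inputs and 5 and 0 in DKO, too few to test. The 3 counts used here as the limit that a count of 0 allows equal 0.277 and 0.251 CPM in the control inputs.

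**Figure D1:**
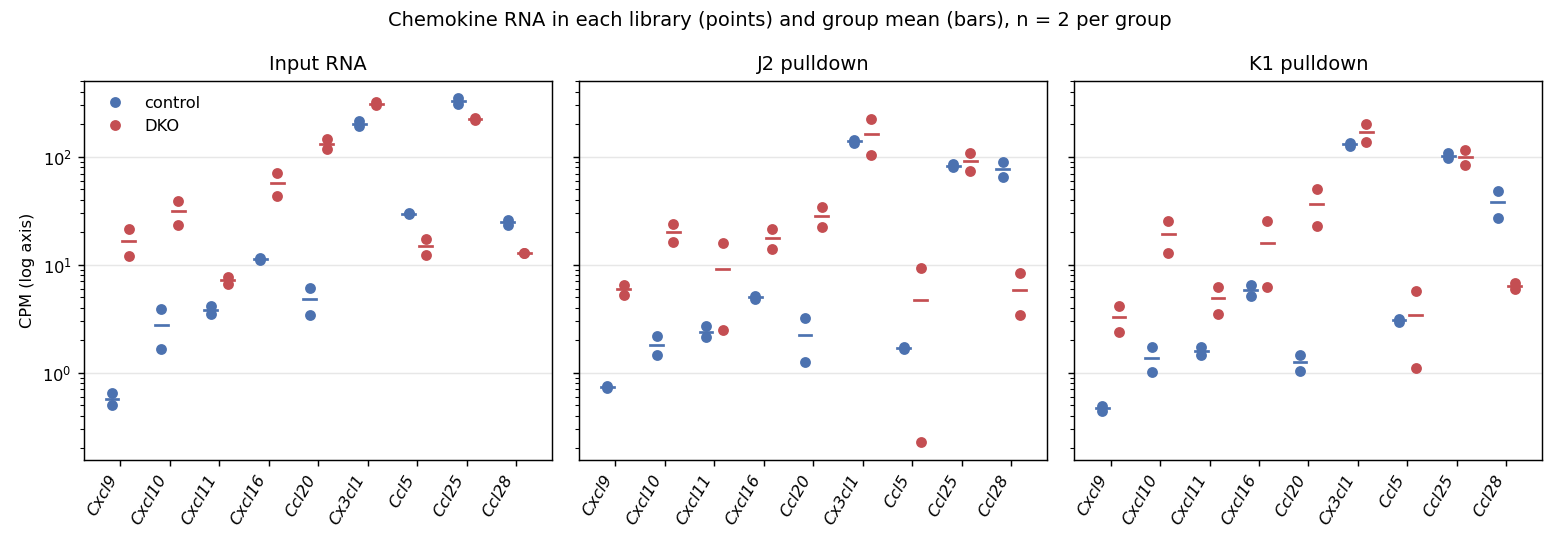
Chemokine RNA in CPM on a log axis, for 9 members in input, J2 and K1 libraries; points are libraries (2 per genotype) and bars are group means. In input, Ccl20 moved from 6.10 and 3.43 CPM in control to 146 and 119 CPM in DKO, whereas in the pulldowns the DKO points of Ccl5 spread from 0.226 to 9.26 CPM in J2.

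Levels were then ordered within each genotype in CPM per kilobase of exon, which adjusts for gene length. The length joins all annotated exons of a gene, 2252 bases for Cxcl10 and 7445 for Ccl25, and can exceed that of the RNA made. Orders between genes are therefore approximate, and the Cxcl11 level may miss reads from bases shared with Gm2673. In control input Cx3cl1 led at 51.8 ± 3.43 (SD, n = 2), followed by Ccl25 at 44.3 ± 3.75 and Ccl5 at 31.1 ± 0.741. Ccl28 at 5.10 ± 0.447, Cxcl16 at 3.71 ± 0.116 and Ccl20 at 3.35 ± 1.33 formed a middle tier, in which the libraries of Cxcl16 and Ccl20 overlapped. Cxcl10 at 1.23 ± 0.693 and Cxcl11 at 1.01 ± 0.12 also overlapped, and Cxcl9 was lowest at 0.191 ± 0.0339. In DKO input Ccl20 stood first at 93.4 ± 13.5, ahead of Cx3cl1 at 79.4 ± 2.80 and Ccl25 at 30.1 ± 1.14. Cxcl16 at 18.8 ± 6.41, Ccl5 at 15.6 ± 3.74 and Cxcl10 at 13.9 ± 5.02 could not be ordered, since their libraries overlapped. Cxcl9 at 5.52 ± 2.20, Ccl28 at 2.65 ± 0.0051 and Cxcl11 at 1.89 ± 0.214 closed the order. The libraries of Ccl20 and Cx3cl1 did not overlap in DKO, but the distance between their means was close to the SD of Ccl20.

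Other chemokines were mostly silent in this epithelium, and the few that were measurable moved in both directions. Of 27 listed genes 8 were tested in input, 4 rose and 2 fell, where 18.8% of all genes rose and 17.1% fell. The rises were in Cxcl1, Cxcl2 and Cxcl5, neutrophil attractants that act through CXCR2, and in Ccl22, a CCR4 ligand. All 4 passed the filter only through the DKO libraries, and Ccl24, 1 of the 2 that fell, only through control, so these had to differ and the counts support nothing further. Cxcl5 was at least 16.5-fold higher in DKO (the lower DKO library against 3 counts in control), with 46 and 52 counts against 0 and 0 in control. Cxcl1 went from 3 and 2 counts to 188 and 70, a ratio of 54.8 with an exact 95% interval of 23.2 to 170.2 that covers counting error only, and Cxcl2 from 5 and 2 to 155 and 82 (log2 fold change 5.14, SE 0.80, edgeR adjusted p 0.000751). Ccl6, a CCR1 ligand, fell from 99.7 and 100 CPM to 12.4 and 21.9 CPM, a log2 fold change of -2.53 (SE 0.23, edgeR adjusted p 0.000351). Neutrophil markers were near 0: S100a8, Csf3r and Ly6g had no count in either control input, and the summed level was 0 to 0.0837 CPM in control and 0.88 to 1.69 CPM in DKO.

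Receptors of the members had few counts. Of 23 chemokine receptors 5 were tested in input, 2 rose and 1 fell, too few to set apart from the 18.8% of all genes that rose and 17.1% that fell. Counts in the control and then the DKO inputs were 6, 12, 10 and 8 for Cxcr3, 23, 23, 27 and 21 for Cxcr6, and 40, 44, 30 and 35 for Ccr9. For Ccr10 they were 12, 8, 2 and 4, and for Ccr6 they were 0, 2, 1 and 1. Ccr4, which passed the filter only through the DKO libraries, was at least 21.6-fold higher in DKO with 100 and 68 counts against 0 and 0 in control, and Ccrl2, an atypical receptor that presents chemerin, rose by a log2 fold change of 2.54 (SE 0.55, edgeR adjusted p 0.00941). Ackr4, which scavenges Ccl25 among other ligands, fell from 9.98 and 11.2 CPM to 4.47 and 5.54 CPM (log2 fold change -1.08, SE 0.22, edgeR adjusted p 0.00881).

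Among 3 proteases that release or trim chemokines, Adam10, a sheddase of Cx3cl1 and Cxcl16, rose from 135 and 122 CPM to 219 and 200 CPM (log2 fold change 0.70, SE 0.13, edgeR adjusted p 0.00506). Adam17 had a log2 fold change of 0.25 (adjusted p 0.188) and Dpp4, which cuts the amino end of the CXCR3 ligands, -0.08 (adjusted p 0.68). Of 10 inducing cytokines only Tnf and Il18 had enough counts to test. Tnf rose from 19 and 10 counts to 139 and 114 (log2 fold change 3.20, SE 0.38, edgeR adjusted p 0.000715), and Il18 did not pass (-0.12, adjusted p 0.604). The 10 counts of Tnf in control replicate 2 were under the filter's minimum, so it passed the filter only through both DKO libraries. Its call therefore describes the values and supports nothing further. Ifnb1 had 0 counts in all 4 inputs, and Ifng had 0 and 2 in control and 0 and 0 in DKO.

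All 14 transcription factors and feedback genes of the interferon and NF-kB routes were tested in input, 10 rose and 2 fell, with a median log2 fold change of 1.05 against 0.00 over all genes. The shares over all genes, for these and for the marker counts below, were 18.8% higher and 17.1% lower. Irf7 rose by 2.75 (SE 0.16, edgeR adjusted p 8.26e-05), Stat2 by 2.18 (SE 0.20, adjusted p 0.000349) and Tnfaip3, a feedback inhibitor of NF-kB, by 1.79 (SE 0.15, adjusted p 0.000256). Irf1, a known activator of Cxcl9 and Cxcl10, went the other way, from 179.7 and 138 CPM to 95.6 and 90.1 CPM (log2 fold change -0.78, SE 0.15, adjusted p 0.0071), as did Irf8 (-0.68, SE 0.19, adjusted p 0.0261). Macrophage and dendritic cell markers gave 2 higher and 1 lower of 4 tested (Csf1r, 1 of the higher, passed the filter only through DKO), with summed levels of 10.1 to 10.4 CPM in control and 9.85 to 17.1 CPM in DKO. Stromal and endothelial markers gave 1 higher of 4 tested, with 3.33 to 7.54 CPM in control and 6.51 to 14.3 CPM in DKO. The gene that rose, Pdgfrb, had 9 counts in control replicate 1, under the filter's minimum, and passed it only through both DKO libraries. For B and plasma cells 0 of 1 tested gene passed, with 2.85 to 3.24 and 3.96 to 6.06 CPM and with Mzb1 at 0 counts in every input. The part of these cells in the chemokine results was not tested.

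**Figure D2:**
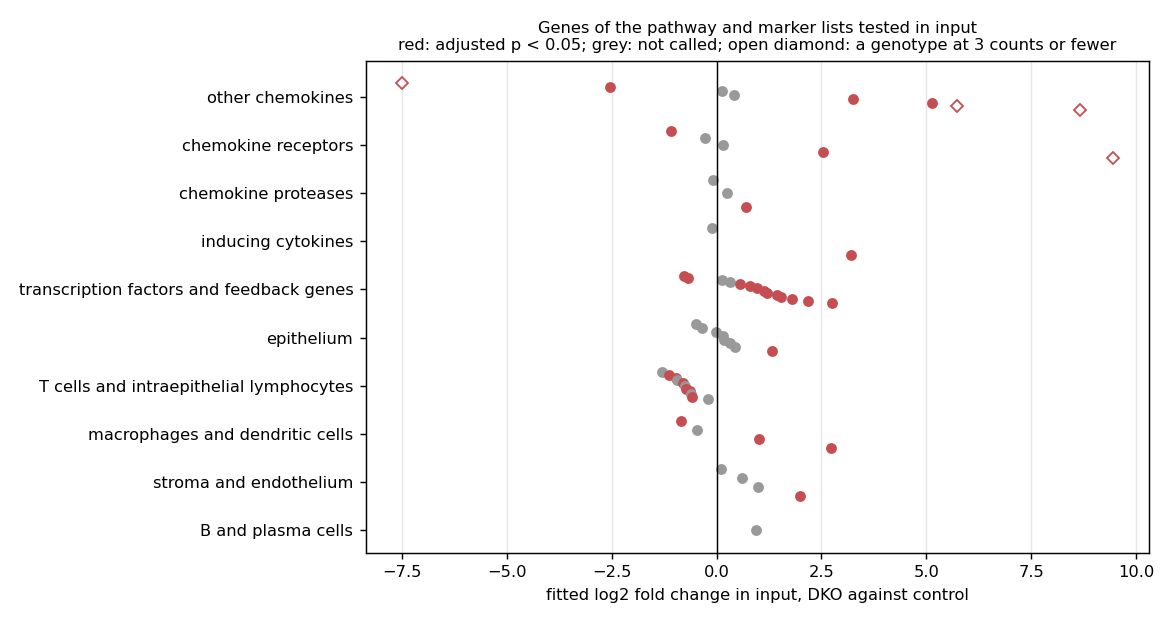
Fitted log2 fold change in input, DKO against control, for every tested gene of the pathway and marker lists; red points passed the threshold, grey points did not, and open diamonds are genes at 3 counts or fewer in both libraries of a genotype, whose fitted value is no bound. The interferon and NF-kB genes sit mostly to the right of 0 (10 of 14 rose), and the markers of T cells and intraepithelial lymphocytes sit to the left (6 of 11 fell). Over all genes 18.8% rose and 17.1% fell.

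The same genotype comparison within the pulldowns asks whether antibody-bound chemokine RNA changed. Cxcl9, Cxcl10 and Ccl20 were higher and Ccl28 was lower in DKO with both antibodies, so 4 of 9 tested members passed in J2 and the same 4 in K1. Over all genes the test called 12.2% in J2, 6.02% higher and 6.16% lower, and 27.1% in K1, 13.2% higher and 13.9% lower. Cxcl9 again passed the filter only through DKO libraries in both pulldowns, and Ccl5 only through control libraries. Scaling by library size alone lowered the share of called genes that were higher from 52.4% to 42.1% in input, from 49.4% to 32.7% in J2 and from 48.6% to 27.4% in K1. All the called members kept their direction under that scaling.

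Ccl20 was at 1.25 and 3.20 CPM in control J2 and at 34.1 and 22.5 CPM in DKO J2, and at 1.03 and 1.46 CPM in control K1 and 50.7 and 23.0 CPM in DKO K1. The log2 fold changes were 3.68 in J2 (SE 0.56, edgeR adjusted p 0.0316) and 4.91 in K1 (SE 0.47, edgeR adjusted p 0.00201). In J2 the call was lost without control replicate 1 (3.09, adjusted p 0.172) and the value was 4.44 without control replicate 2, and in K1 it was 4.17 without DKO replicate 1. Cxcl10 was at 2.18 and 1.45 CPM against 24.0 and 16.4 CPM in J2, and at 1.73 and 1.02 CPM against 25.7 and 12.9 CPM in K1. Every DKO pulldown was several times above every control pulldown, with log2 fold changes of 3.46 in J2 (SE 0.45, edgeR adjusted p 0.0287) and 3.82 in K1 (SE 0.48, edgeR adjusted p 0.00379). The J2 call was lost without either control (adjusted p 0.109 and 0.188), and the K1 value was 3.17 without DKO replicate 1.

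Cxcl9 was at 0.748 and 0.726 CPM in control J2 and 6.56 and 5.25 CPM in DKO J2, a log2 fold change of 2.98 (SE 0.49, edgeR adjusted p 0.032). In K1 it was at 0.487 and 0.445 CPM against 4.17 and 2.39 CPM, a log2 fold change of 2.85 (SE 0.60, edgeR adjusted p 0.0146). These rest on 29 and 17 counts in DKO J2 and on 19 and 5 in DKO K1. Both calls were lost without either control library (adjusted p 0.44 and 0.432 in J2, 0.301 and 0.303 in K1), and the K1 call also without DKO replicate 1 (adjusted p 0.0718). Macrophage markers moved with these rises: summed levels were 5.74 to 6.30 CPM in control J2 and 16.98 to 25.8 CPM in DKO J2, and 5.46 to 6.04 CPM in control K1 and 27.3 to 35.4 CPM in DKO K1. Of the macrophage markers 0 of 2 tested passed in J2 and 5 of 5 rose in K1. Stromal markers were at 3.99 to 21.0 CPM against 36.4 to 162 CPM in J2 and at 3.79 to 36.3 CPM against 87.7 to 198 CPM in K1, and 0 of 6 tested passed in J2 while 2 of 6 rose in K1. Over all genes the test called 6.02% higher in J2 and 13.2% in K1. Whether these markers passed the filter only through DKO libraries was not checked in the pulldowns. Any that did had to differ, so these counts support nothing further. The part of these cells in the pulled-down chemokine RNA was not tested.

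Ccl28 had the opposite pattern. It was at 89.9 and 65.4 CPM in control J2 and at 8.37 and 3.40 CPM in DKO J2, from 1441 and 900 counts against 37 and 11. In K1 it was at 48.6 and 27.4 CPM against 5.93 and 6.71 CPM. The log2 fold changes were -3.69 in J2 (SE 0.49, edgeR adjusted p 0.0291) and -2.60 in K1 (SE 0.40, edgeR adjusted p 0.00571), larger than the -0.95 in input. Without DKO replicate 1 the J2 value was -4.58.

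The other 5 tested members did not pass in either pulldown. Cxcl16 came closest in J2, with 4.802 and 5.16 CPM against 21.5 and 13.9 CPM in J2 (log2 fold change 1.83, SE 0.42, edgeR adjusted p 0.0512) and 6.49 and 5.08 CPM against 25.3 and 6.23 CPM in K1 (1.51, SE 0.57, adjusted p 0.0892). In J2 its groups did not overlap, and it passed with DESeq2 (1.78, adjusted p 0.0401) and without either DKO library (1.41 and 2.19, adjusted p 0.00285 and 1.95e-05). In K1 its value rested on DKO replicate 1: it was 0.06 without that library (adjusted p 0.93) and 2.18 without DKO replicate 2 (adjusted p 0.000287). Cxcl11 was at 2.12 and 2.69 CPM against 2.49 and 15.8 CPM in J2 (1.90, SE 0.86, adjusted p 0.186) and at 1.73 and 1.46 CPM against 3.52 and 6.23 CPM in K1 (1.54, SE 0.52, adjusted p 0.0681), where its groups did not overlap. Its J2 value was 0.14 without DKO replicate 2 (adjusted p 0.827) and 2.64 without DKO replicate 1 (adjusted p 0.000216), and its K1 value 1.91 without DKO replicate 1 (adjusted p 0.0222). Ccl5 depended on a single DKO animal as well: in J2 it had 28 and 23 counts in control and 1 and 30 in DKO, and its log2 fold change went from 1.41 (SE 1.22, adjusted p 0.444) to -2.78 without DKO replicate 2 and to 2.36 without DKO replicate 1. In K1 its DKO libraries held 5 and 12 counts, and the log2 fold change was -0.03 (SE 0.72, adjusted p 0.979). Summed markers of T cells and intraepithelial lymphocytes were at 53.3 and 55.8 CPM in control J2 and at 39.1 and 102.2 CPM in DKO J2. In K1 they were at 46.3 and 39.1 CPM against 41.1 and 58.0 CPM. The part of these cells in the Ccl5 values was not tested.

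Ccl25 was at 80.2 and 85.9 CPM against 109 and 74.1 CPM in J2, so that the DKO libraries bracketed the controls (log2 fold change 0.14, SE 0.36, adjusted p 0.795), and in K1 its log2 fold change was -0.04 (SE 0.27, adjusted p 0.932). Cx3cl1 was likewise bracketed in J2, at 143 and 135 CPM against 223 and 103 CPM (0.23, SE 0.49, adjusted p 0.758). In K1 it was at 126 and 134 CPM against 202 and 138 CPM (0.39, SE 0.29, adjusted p 0.365). Ccl2 had 0 counts in every control pulldown, 1 and 0 in DKO J2 and 1 and 4 in DKO K1, and was not tested.

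**Figure D3:**
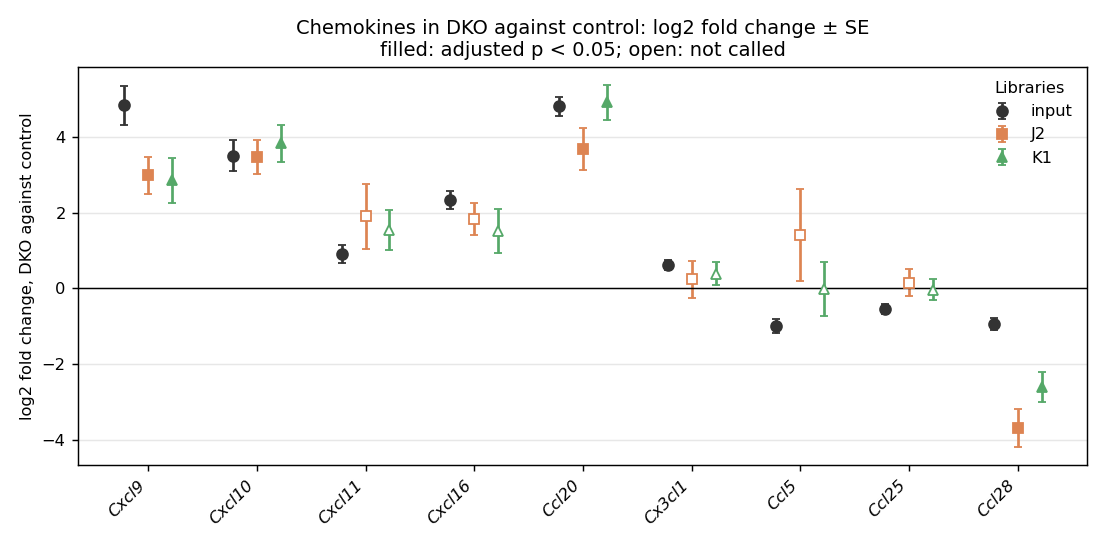
Log2 fold change of DKO against control for 9 members in input, J2 and K1 libraries, with SE from the edgeR fit as bars; filled symbols passed the adjusted p threshold and open symbols did not. Cxcl9, Cxcl10, Ccl20 and Ccl28 have filled symbols in all 3 kinds of library, and Ccl28 lies at -0.95 in input but at -3.69 in J2 and -2.60 in K1.

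Pulldown was next set against input, which shows how far a chemokine's RNA was captured relative to the average RNA. The comparisons within an antibody share their input libraries, and both antibodies share the same inputs, so the antibodies are not independent. In control, Ccl28 was the sole tested member that passed the threshold above input, and it did so with both antibodies. Its level in J2 exceeded that in the input of the same animal by 2.12 and 1.86 on the log2 scale, and in K1 by 1.23 and 0.58. The fitted log2 enrichments were 2.02 in J2 (SE 0.35, edgeR adjusted p 0.00645) and 0.97 in K1 (SE 0.26, edgeR adjusted p 0.0152). Without control replicate 1 or 2 they were 1.88 and 2.16 in J2 (adjusted p 0.343 for each) and 0.60 and 1.24 in K1 (adjusted p 0.446 and 0.123), and the calls were lost. The K1 call was also lost with scaling by library size alone (0.74, adjusted p 0.0689) and in the fit of all 12 libraries (1.04, adjusted p 0.0517).

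Ccl5 and Ccl25 were under-represented in the control pulldowns. Ccl5 was below the input of its own animal by -3.59 and -3.68 in J2 and by -2.89 and -2.87 in K1, with fitted log2 values of -3.75 (SE 0.78, edgeR adjusted p 0.0128) and -2.94 (SE 0.37, edgeR adjusted p 0.000463). Of 11 tested T cell and intraepithelial lymphocyte markers, 6 passed below input in control J2 and 8 in control K1, and 0 above. Over all genes 14.6% and 20.1% passed below. Whether these markers passed the filter only through input was not checked, so the counts support nothing further. Their part in the Ccl5 values was not tested. Ccl25 gave -1.62 in J2 (SE 0.32, edgeR adjusted p 0.0094) and -1.34 in K1 (SE 0.25, edgeR adjusted p 0.00285). Ccl20 was below input in K1 at -1.59 (SE 0.48, edgeR adjusted p 0.0224), from -2.06 in replicate 1 and -0.82 in replicate 2, and was -0.87 without the former and -2.21 without the latter, neither past the threshold. With animal as a block, 2 further members passed below input in control, Cxcl16 in J2 (-0.80, adjusted p 0.047 in place of 0.111) and Cxcl11 in K1 (-0.92, adjusted p 0.0485 in place of 0.0523). In all, 3 of 9 tested members passed in control J2 and 4 of 9 in control K1, where 29.8% and 39.8% of all genes did. The calls of Ccl5 and Ccl25 were lost when a control animal was left out (adjusted p 0.343 and 0.374 for Ccl5 and 0.41 and 0.435 for Ccl25 in J2, 0.0555 and 0.0559 for Ccl5 and 0.182 and 0.187 for Ccl25 in K1).

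In DKO no tested member passed above input. J2 passed 2 of 9, Ccl20 at -1.83 (SE 0.44, edgeR adjusted p 0.0218) and Cxcl16 at -1.29 (SE 0.34, edgeR adjusted p 0.0279), against 25.7% of all genes. K1 passed 5 of 9 against 35.6% of all genes: Cxcl9 at -2.02, Ccl5 at -2.23, Ccl20 at -1.58, Cxcl16 at -1.51 and Ccl25 at -0.96, with edgeR adjusted p from 0.00524 to 0.0298. Of these, Ccl5 moved to -1.08 and -3.70 without DKO replicate 1 and 2, and Cxcl16 to -2.77 and Ccl20 to -2.35 without DKO replicate 1. Ccl20 and Cxcl16 in J2 and Cxcl16 and Ccl25 in K1 were no longer called without either control animal (adjusted p 0.0552 to 0.13). With animal as a block, Ccl28 (-0.83, adjusted p 0.0356 in place of 0.0785) and Cx3cl1 (-0.70, adjusted p 0.0367 in place of 0.0745) also passed below input in K1. Cxcl10 gave log2 values between -0.64 and -0.23 in the 4 comparisons, none past the threshold. Of the 3 members that rose most in input, Cxcl9, Cxcl10 and Ccl20, none passed above its input level in DKO, and all their fitted values there were below 0.

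Whether capture itself differed between genotypes was tested as an interaction. Ccl28 alone passed, 1 of 9 tested members with each antibody, while 2.71% of all genes did in J2 and 5.47% in K1. In DKO its pulldown level lay below the input of the same animal, by -0.17 and -1.58 in J2 and by -0.81 and -0.82 in K1, where the control animals had been above it in all cases. The change of log2 enrichment was -2.71 in J2 (SE 0.54, edgeR adjusted p 0.0449) and -1.80 in K1 (SE 0.43, edgeR adjusted p 0.0404), beside medians over all genes of 0.00 and -0.20. With animal as a block, which pairs each pulldown with its own input, the J2 value was -2.79 and no longer passed (adjusted p 0.0712; 0 of all genes passed, 4074 had an unadjusted p under 0.05), and the K1 value was -1.75 (adjusted p 0.00655; 1912 genes passed in place of 870). Without control replicate 1 or 2 the J2 values were -2.60 and -3.01 (adjusted p 0.738 and 0.676), without DKO replicate 1 it was -3.66, and the K1 values were -1.45 and -2.09 (adjusted p 0.644 and 0.268). The K1 call was also lost without DKO replicate 1 (-1.87, adjusted p 0.0779) or 2 (-1.81, adjusted p 0.0859) with the other size factors of edgeR (-1.64, adjusted p 0.066) and in the fit of all 12 libraries (-1.79, adjusted p 0.151). DKO pulldowns of Ccl28 held 11 to 37 counts, and the share of reads aligned to several places was 15.8% to 46.7% in DKO pulldowns against 5.54% to 6.56% in control pulldowns; the part of either in this change was not tested.

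Cxcl9 gave lower capture values in DKO with both antibodies, from 0.45 and 0.69 in control to -1.24 and -0.87 in DKO for J2, and from -0.05 and 0.12 to -2.03 and -2.13 for K1. The groups of animals did not overlap, but the changes of -1.83 (SE 0.66, edgeR adjusted p 0.134) and -2.08 (SE 0.75, adjusted p 0.128) did not pass, and the control values rest on 6 to 12 counts. Without DKO replicate 1 or 2 they did pass, at -1.64 and -1.98 in J2 (adjusted p 0.0427 and 0.0191) and -2.33 and -2.14 in K1 (adjusted p 0.0481 and 0.0492). For Cxcl10 the change was -0.01 in J2 (SE 0.68) and 0.22 in K1 (SE 0.70), and for Ccl20 -1.09 (SE 0.66) and 0.01 (SE 0.60). Ccl25 and Ccl5 gave 0.72 (SE 0.45) and 2.33 (SE 1.14) in J2 and 0.38 (SE 0.36) and 0.71 (SE 0.63) in K1, none past the threshold.

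**Figure D4:**
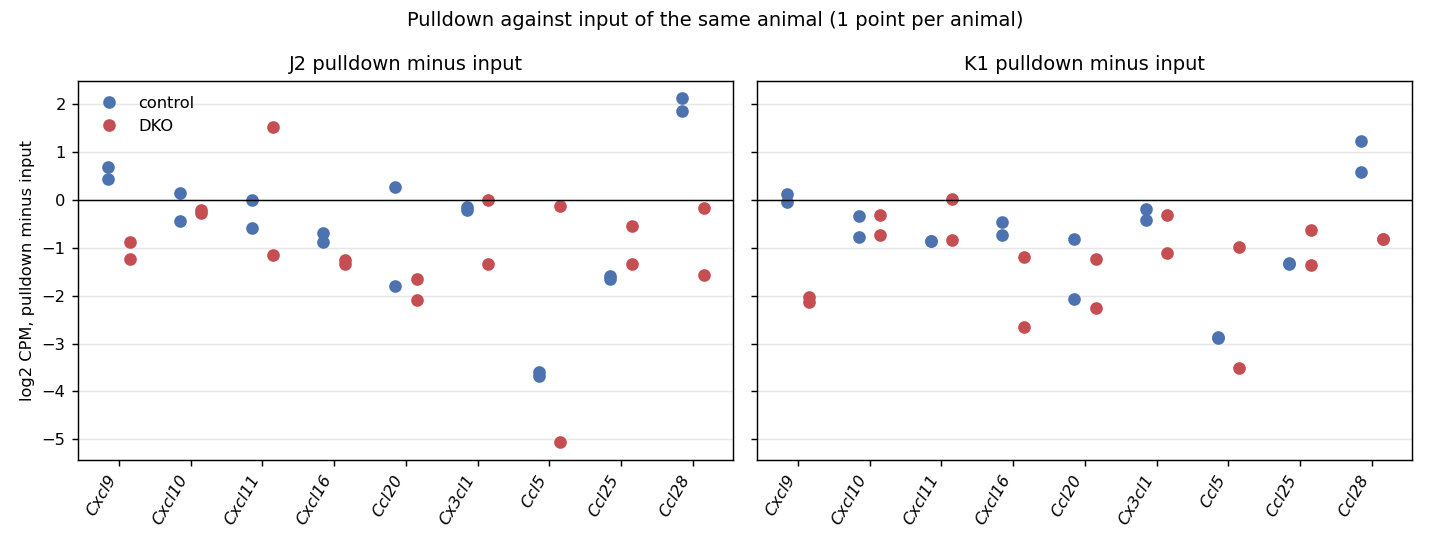
Log2 CPM of a pulldown minus that of the input of the same animal, 1 point per animal, for 9 members with J2 on the left and K1 on the right; a value above 0 means more of the gene in the pulldown. Ccl28 is the gene whose control points lie highest (2.12 and 1.86 in J2) while its DKO points lie below 0, and the DKO points of Ccl5 in J2 are far apart at -5.06 and -0.13.

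Genes with the most similar profile over the 12 libraries were sought for an induced and for a homeostatic member, by the root-mean-square difference of log2 CPM after centring each gene on its mean, among 9282 protein-coding genes. Nearest to Cxcl10 were Oas1a (0.30), Gbp7 (0.32) and Spats2l (0.32), where Cxcl10 itself varied by 1.75 around its mean and the median distance of all genes was 1.93. Oas1a and Gbp7 are known interferon-induced genes, an oligoadenylate synthetase and a guanylate-binding protein. Nearest to Ccl25 were Ndfip1 (0.19), Mpp1 (0.19) and Ndufb11 (0.20), with a variation of 0.63 for Ccl25 and a median distance of 0.92. All these genes were measured in the same libraries, so shared depth and capture enter each distance.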

How the data were processed

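RNA of 12 libraries from 4 animals was deposited by the authors as whole-number read counts per gene, 1 table per library, made without using strand per the labels. Per the submitters' processing notes, STAR 2.7.10b, SAMtools 1.17, UMI-tools 1.1.4 and HTSeq 2.0.2 were among the tools and mm10 (GRCm38.p4) the genome. How molecular identifiers were used and the annotation release are not given in the sources used here. Amplified copies of a molecule, if left in, would make counting error too small.

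Symbols and coordinates came from GENCODE M21 (GRCm38), which matched 48144 of 48526 gene rows without the version suffix. Rows that name no gene (reads outside genes, ambiguous or aligned to several places) entered neither library sizes nor tests. Reads aligned to several places were 5.54% to 8.05% of the listed reads in inputs and control pulldowns and 15.8% to 46.7% in DKO pulldowns.

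The test was edgeR's quasi-likelihood test (version 4.0.16, R 4.3.3) after TMM scaling. Genes entered by filterByExpr at a minimum count of 10, and the threshold was a Benjamini-Hochberg adjusted p of 0.05 over all genes tested. DKO was compared with control in 3 fits of 4 libraries (2 residual degrees of freedom). Pulldown against input and its change between genotypes used 2 fits of 8 libraries (4 residual degrees of freedom). SE is the standard error of a log2 fold change from the weights and moderated dispersion of the fit. CPM were scaled by TMM within a kind of library, and log2 CPM values were formed with a prior count of 2. Against a group with 0 counts, a fold is a lower bound, the lowest library of the other group over 3 counts in the library of the first where they weigh most. Bounds and intervals cover counting error only. The pipeline was also run on simulated counts with the same dispersion for all genes and libraries. The spread of the real groups differed (chi-square per degree of freedom 11 in control input, 96.05 in DKO J2). That run therefore does not show how the test performs on these libraries. Alternatives were DESeq2 1.42.0, other scalings, no filter, a block, left-out animals and 1 fit of all libraries. The block was the replicate number in fits of 4 libraries and the animal in fits of 8.

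The description of each library names its animal, so a pulldown and its input come from the same animal. Deviations of the pair from their group means correlated at 0.299 and 0.260 in J2 (control, DKO) and at 0.314 and 0.224 in K1.

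Beside the 10 members, the rule names Kat2a and Kat2b, up to 3 called genes per direction of each list with the largest change in input and a mean of at least 20 counts, and the 3 genes most like Cxcl10 and Ccl25 (mean of at least 50 counts). Other list genes are given to account for receptors, cytokines and markers. The members and lists were chosen with earlier results of these data known.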

Additional observations from a re-analysis of the deposited data

Results flagged for a closer look

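The effect of pulldown on Ccl28 differed between the genotypes by a test of the difference itself. The interaction gave a change of log2 enrichment of -2.71 with J2 and of -1.8 with K1 in DKO against control (edgeR adjusted p 0.0449 and 0.0404). With animal as a block the J2 call was lost (-2.79, adjusted p 0.0712) and the K1 call was not (-1.75, adjusted p 0.00655). Leaving out control replicate 1 or 2 ended both calls (adjusted p 0.738 and 0.676 in J2, 0.644 and 0.268 in K1), and leaving out either DKO animal (adjusted p 0.0779 and 0.0859), other size factors (0.066) or a fit of all 12 libraries (0.151) ended that of K1. The other 8 tested members did not pass that test with either antibody.

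Reads that aligned to several places lie outside the gene counts. Their mean share of the listed reads was 22.7% in DKO J2 and 36.3% in DKO K1 (n = 2 each), above the 5.54% to 6.56% of the control pulldowns. Such reads are not part of any chemokine value given here.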

How the results depend on the processing

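All called members kept their direction under every alternative run: of 330 alternatives of called results, 271 stayed past the threshold and 59 did not. In the fit of all 12 libraries, called members fell from 9 to 4 in input, from 2 to 1 for J2 against input in DKO, from 4 to 2 and from 5 to 2 for K1 against input in control and DKO, and from 1 to 0 for the change of K1 enrichment. The counts over all genes in that fit were 1675 in place of 5421 in input, 5984 in place of 1606 in J2, 898 in place of 432 for the change of J2 enrichment and 59 in place of 870 for that of K1. For J2 against input in DKO they rose, to 4461 from 4087 genes. For K1 against input they were 4587 in place of 6324 in control and 3864 in place of 5659 in DKO. DESeq2 called 2751 genes in J2 and 1814 for the change of J2 enrichment. Without the count filter the numbers were 4273 genes in J2, and 2453 and 1763 for the changes of J2 and K1 enrichment, with 3 members for the J2 change and 5 for J2 against input in DKO. That last comparison called 5464 genes without the filter. Scaling by library size alone gave 6 members and 3825 genes for J2 against input in DKO, and 669 genes for the change of J2 enrichment. Median-ratio size factors gave 0 members and 523 genes for the change of K1 enrichment. The cause of these differences was not tested.

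With animal as a block, the change of J2 enrichment passed for 0 members and 0 genes (4074 genes at an unadjusted p under 0.05), and 1912 genes passed for K1 in place of 870. In the within-kind comparisons the block is a replicate number that pairs no animals: same-numbered control and DKO libraries had correlated deviations of 0.03 in input, -0.09 in J2 and -0.10 in K1, and the block moved the genes called in J2 from 1606 to 2262. The animal block ended no other call of a called member and added 4 calls of members against input.

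Leaving out 1 animal at a time gave 6 to 9 called members in input, 1 to 8 in J2 and 3 to 6 in K1. Against input, J2 gave 0 to 5 in control and 0 to 7 in DKO, and K1 gave 0 to 7 and 3 to 6. The changes of enrichment gave 0 to 5 with J2 and 0 to 4 with K1. Over all genes the ranges were 3615 to 6226 in input, 177 to 8635 in J2, 1149 to 5819 in K1, 0 to 10139 and 337 to 7791 for J2 against input in control and DKO, 281 to 9189 and 3005 to 5970 for K1 against input, 0 to 6990 for the change of J2 enrichment and 0 to 3802 for that of K1. In each range the lowest count came without a control animal and the highest without a DKO animal. A fit that leaves a group with 1 library takes its spread from the other groups.

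Of 480 alternatives of uncalled results 34 changed sign. For DKO against control in J2, the log2 ranges over left-out animals were -2.78 to 2.36 for Ccl5, -0.23 to 0.48 for Ccl25 and -0.50 to 0.77 for Cx3cl1, and Ccl25 was -0.00 by library size alone and -0.01 without the filter. In K1 they were -1.40 to 0.87 for Ccl5 and -0.34 to 0.24 for Ccl25, with 0.01 and 0.02 under median-ratio scaling and 0.00 for Ccl5 with DESeq2. For J2 against input, Cxcl10 ranged from -0.45 to 0.18 and Ccl20 from -1.90 to 0.28 in control, and Cxcl11 from -1.18 to 1.40 and Cx3cl1 from -1.48 to 0.00 in DKO. For K1 against input in control, Cxcl9 ranged from -0.06 to 0.18 and was -0.07 under median-ratio scaling, -0.17 by library size alone and -0.06 with DESeq2. The change of J2 enrichment ranged from -0.44 to 0.06 for Cxcl10, -0.88 to 1.84 for Cxcl11, -2.02 to 3.60 for Ccl5 and -1.17 to 0.18 for Cx3cl1. That of K1 ranged from -0.18 to 0.36 for Cxcl10, -0.77 to 1.87 for Ccl5, -0.75 to 0.59 for Ccl20 and -0.09 to 0.70 for Ccl25, and for Ccl20 it was -0.13 by library size alone, -0.11 with the animal block and -0.01 in the fit of all 12 libraries. Ccl28 values in DKO pulldowns rest on 11 to 37 counts, which limits their precision.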
